A study of Mus musculus with 18 samples.

Results

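A group of 7 of the 15329 genes listed for the hippocampus was followed: Dcx, Sox11, Sox4, Neurod1, Calb2, Dpysl3 and Igfbpl1. They were chosen by name as genes that mark adult neurogenesis and immature neurons. Their mRNA was measured in 18 hippocampi of C57BL/6J mice aged 8 to 10 weeks, 3 mice in each of 6 groups. The groups combined genotype, wild type (WT) or Ccny knockout (KO), with training state. Basal mice were untrained, OL mice had gone through original learning in the Morris water maze, and RL mice had in addition gone through reversal learning, in which the hidden platform is moved. Ccny encodes cyclin Y, a synaptic cyclin that binds actin. No group swam without learning, so swimming, handling, days in the maze and learning cannot be told apart in any comparison with Basal.

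New granule neurons are made throughout life in the subgranular zone of the dentate gyrus. Radial glia-like stem cells give rise to dividing progenitors, these to neuroblasts and young neurons, and the young neurons mature into granule cells over weeks. Such cells are a small minority of the hippocampus, and several of the 7 genes are also used by other cells. In whole hippocampal tissue a lower level can mean fewer cells of a type or less RNA in each cell, and these cannot be told apart.

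By their roles the genes fall into transcription factors, cytoskeletal proteins, a calcium-binding protein and a secreted protein. Sox11 and Sox4 are SoxC transcription factors of progenitors and newborn neurons, and Neurod1 is a basic helix-loop-helix factor needed for the birth and survival of granule neurons. Dcx (doublecortin) binds microtubules in migrating neuroblasts and young neurons, and Dpysl3 (CRMP4) belongs to the collapsin response mediator proteins that act in growing axons. Calb2 (calretinin) is a calcium-binding protein of a brief stage of the young granule neuron, of a class of interneurons and of mossy cells. Igfbpl1 is a secreted protein related to the insulin-like growth factor binding proteins. In the GENCODE M21 annotation (GRCm38, the same build as mm10) all 7 are protein-coding genes on the minus strand. Dcx lies at X:143855842 to 143933311, Sox11 at 12:27334264 to 27342574, Sox4 at 13:28948919 to 28953713 and Neurod1 at 2:79452521 to 79456751. Calb2 lies at 8:110137502 to 110168210 and Igfbpl1 at 4:45809468 to 45826923. Exons of Cerkl overlap those of Neurod1 on the same strand, so reads could be shared between these genes. Gm26735 and Gm26755 overlap Sox4 and Neurod1 on the other strand, and whether reads were counted by strand is not given in the sources used here, so the levels of Sox4 and Neurod1 carry this uncertainty.

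The promoters of the 3 genes that the results turn on are shown from RefSeq (GRCm38.p6), 5′ to 3′ on the minus strand, up to the last base before the annotated gene for Dcx and Neurod1 and before the RefSeq start, 144 bases from the annotated gene, for Sox11. In capitals are matches to the E-box CANNTG, the letters bound by basic helix-loop-helix factors, and to the TATA box TATAAA, on either strand. The Dcx piece is chrX:143933312-143933469 (158 bases), the Sox11 piece chr12:27342719-27342968 (250 bases) and the Neurod1 piece chr2:79456752-79456886 (135 bases).
Dcx: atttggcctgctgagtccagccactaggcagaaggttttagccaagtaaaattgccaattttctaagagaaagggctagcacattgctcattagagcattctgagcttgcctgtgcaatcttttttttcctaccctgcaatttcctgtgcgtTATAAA
Sox11: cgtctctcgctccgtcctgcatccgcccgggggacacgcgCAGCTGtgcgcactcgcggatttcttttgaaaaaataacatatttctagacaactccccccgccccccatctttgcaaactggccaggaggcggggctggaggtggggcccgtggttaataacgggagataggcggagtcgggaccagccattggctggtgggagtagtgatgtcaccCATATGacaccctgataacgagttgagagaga
Neurod1: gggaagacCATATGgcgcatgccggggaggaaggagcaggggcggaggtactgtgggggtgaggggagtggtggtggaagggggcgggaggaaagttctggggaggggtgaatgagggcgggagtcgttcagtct

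The Dcx piece held no E-box and ended in a TATA box, 98 bases before the RefSeq start site. The Sox11 piece held CAGCTG 210 bases and CATATG 32 bases before its start, and the Neurod1 piece held CATATG 242 bases before its start. Of 32851 RefSeq windows of 250 bases before a start site, 66.2% held an E-box and 12.4% a TATA box, so an E-box is common in such windows. The letters CCAAT were found in the windows of Dcx, Sox11 and Sox4 (33.8% of all windows). The SOX letters ACAAAG and ACAATG, looked for together (25.2% of all windows), matched 1 of the windows of these genes, a second Dcx window in its part within the annotated gene. The letters TGACG (17.8% of all windows) matched none of them. The printed promoters differed in base composition, at 42.4% GC for Dcx, 58.0% for Sox11 and 65.2% for Neurod1. A match describes letters and says nothing of binding.

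Each library held 29248557 to 37915576 reads on the listed genes. Basal libraries held 29248557 to 31509208 and trained libraries 31830344 to 37915576, so depth and training state cannot be told apart. Ccny was lower in every KO library (74.0 to 95.8 CPM) than in every WT library (107 to 158 CPM), so the KO libraries still held reads of the gene. CPM is the number of reads of a gene relative to the size of its library, after the scaling done by the authors. The 6 Basal libraries stood apart from the 12 trained libraries in base composition: the correlation, across genes, of a library's deviation with transcript GC content was -0.494 to -0.307 in Basal and -0.0217 to 0.352 in trained libraries. Training state and this difference cannot be told apart, and the changes of Neurod1, Dcx and Sox11 that the results turn on are therefore also given after a GC correction, in which the smoothed trend of each library over transcript GC content was removed. Markers of the dentate granule neuron were present in every library (10 genes summing to 388 to 781 CPM). The 10 choroid plexus markers, from a tissue beside the hippocampus, summed to 43.4 to 8558 CPM, and in KO to 48.0, 677 and 84.2 CPM in Basal mice 1, 2 and 3 against 1355 to 5106 CPM in trained mice. The WT OL mice differed among themselves, with the granule markers at 750 CPM in mouse 3 against 450 and 388 CPM in mice 1 and 2. The sums of mice 1 and 2 were the lowest of all libraries, and a fit without WT OL mouse 3 leaves only these mice in the group. Over all genes, chi-square per gene against counting noise was 25.9 between mice 1 and 3, 47.4 between mice 1 and 2 and 110 between mice 2 and 3.

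All 7 genes were detected in every library, from 87 reads of Igfbpl1 to 3255 reads of Calb2. Per kilobase of the longest transcript the mean levels over the 18 libraries were 34.8 CPM for Calb2, 13.9 for Dpysl3, 8.02 for Neurod1, 2.71 for Sox4, 2.52 for Dcx, 2.12 for Sox11 and 1.87 for Igfbpl1. On the plain CPM scale Dpysl3, at a mean of 76.3 CPM, stood above 79.0% of listed genes, and Igfbpl1, at 5.36 CPM, above 24.6%. Dpysl3 varied least between mice, with its highest library 1.53 times its lowest, and Igfbpl1 varied most, by 4.15 times.

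**Figure D1:**
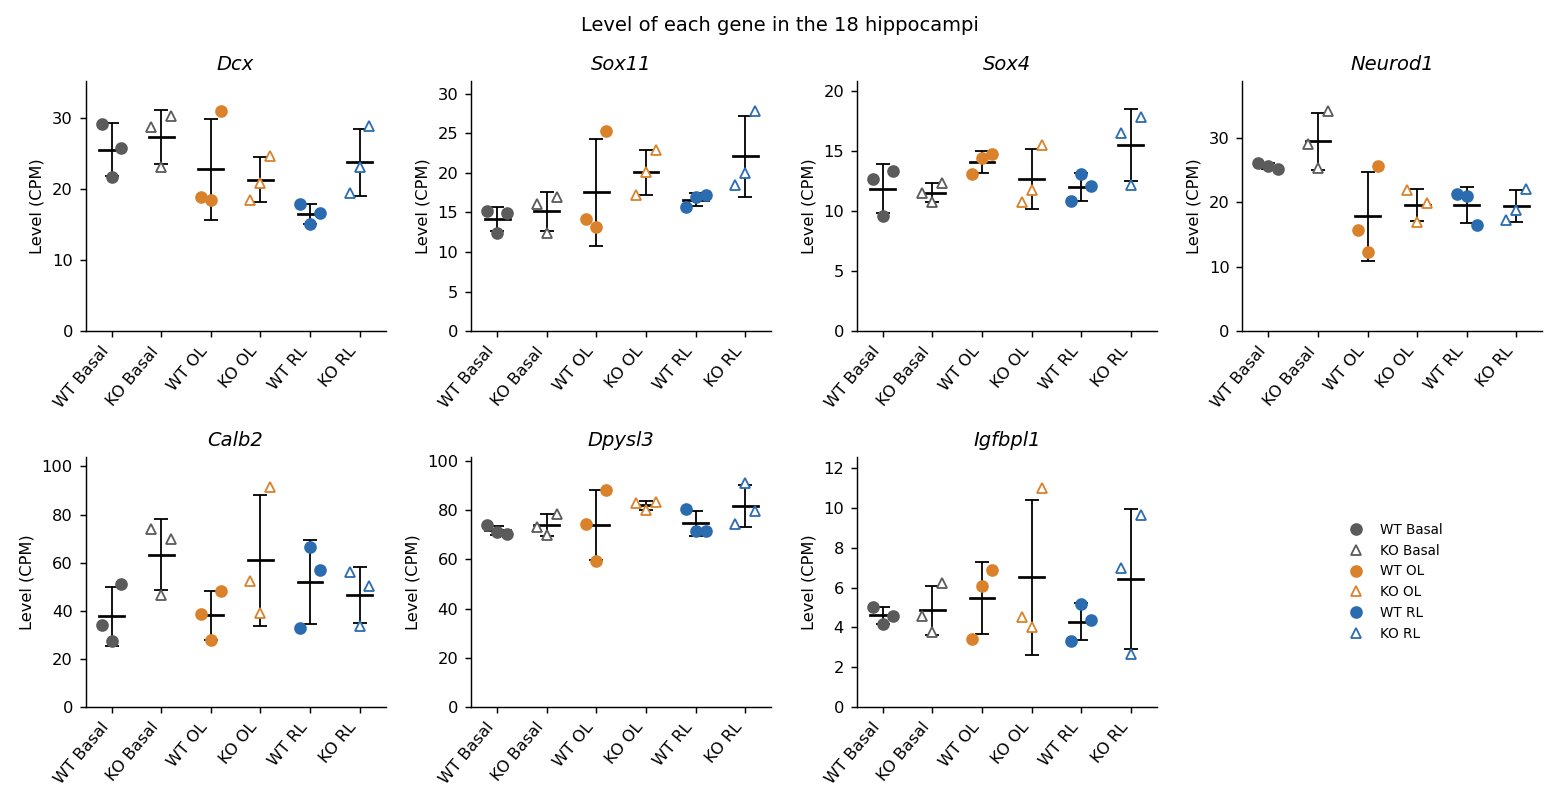
Level in CPM of each of the 7 genes in the 18 hippocampi, by group. Each point is a mouse (circles WT, open triangles KO), and bars give the mean and SD of 3 mice. The Basal mice of Neurod1 sit between 25.1 and 34.1 CPM and the RL mice between 16.4 and 22.1 CPM.

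On average Neurod1 was lower after training than in untrained mice in both genotypes, though within WT neither change was called. In WT Basal mice 1, 2 and 3 it stood at 26.1, 25.6 and 25.1 CPM, and in KO Basal mice at 29.0, 25.2 and 34.1 CPM. After original learning it stood at 15.8, 12.2 and 25.6 CPM in WT and at 21.8, 17.0 and 19.8 CPM in KO. All OL mice except WT OL mouse 3 lay below all Basal mice. After reversal learning Neurod1 stood at 21.3, 20.9 and 16.4 CPM in WT and at 17.3, 18.9 and 22.1 CPM in KO. All 6 RL mice lay below all 6 Basal mice, and 19.7% of all genes had groups that did not overlap in this comparison of RL with Basal.

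Over both genotypes Neurod1 fell by 0.56 on the log2 scale from Basal to OL (SE 0.134, adjusted p = 0.00503 by limma, exact permutation p = 0.01 within genotypes, two-sided). It fell by 0.48 from Basal to RL (SE 0.134, adjusted p = 0.0112, exact permutation p = 0.005, the smallest that 400 permutations can give). Within KO alone it fell by 0.56 from Basal to OL (SE 0.190, adjusted p = 0.0414). From Basal to RL in KO it fell by 0.57 (SE 0.190, adjusted p = 0.0383). The KO groups did not overlap in either, as held for 48.8% and 45.3% of all genes. In the same KO comparisons the choroid plexus markers rose, 10 of 10 for OL and 9 of 10 for RL (median changes of 3.22 and 2.90), and their part in the KO changes of Neurod1 and Sox11 was not tested. Within WT the change from Basal to RL was -0.38 (SE 0.190, adjusted p = 0.189). These groups did not overlap, as held for 34.3% of all genes, and 3 mice against 3 cannot give an exact p below 0.1. The WT change from Basal to OL was -0.56 (SE 0.190, adjusted p = 0.0742), with overlap, and was not called. WT OL mouse 3 decided that comparison: without it Neurod1 fell by 0.84 (adjusted p = 0.00288), and the change over both genotypes became -0.70 (adjusted p = 0.000123).

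The GC correction made the change in Neurod1 smaller and did not end the calls over both genotypes. The change became -0.42 for OL (adjusted p = 0.0359) and -0.36 for RL (adjusted p = 0.0463). Neurod1, with 43.6% GC in its longest transcript, belongs to a class of 1855 genes of 42 to 45% GC whose median change was -0.143 from Basal to OL and -0.107 from Basal to RL. Within KO the correction did end the calls (-0.43, adjusted p = 0.119 for OL and -0.46, adjusted p = 0.0922 for RL). Every mouse left out in turn kept both calls over both genotypes, whereas the KO calls were lost without KO Basal mouse 1 or 3, KO OL mouse 1, 2 or 3, or KO RL mouse 1 or 2.

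**Figure D2:**
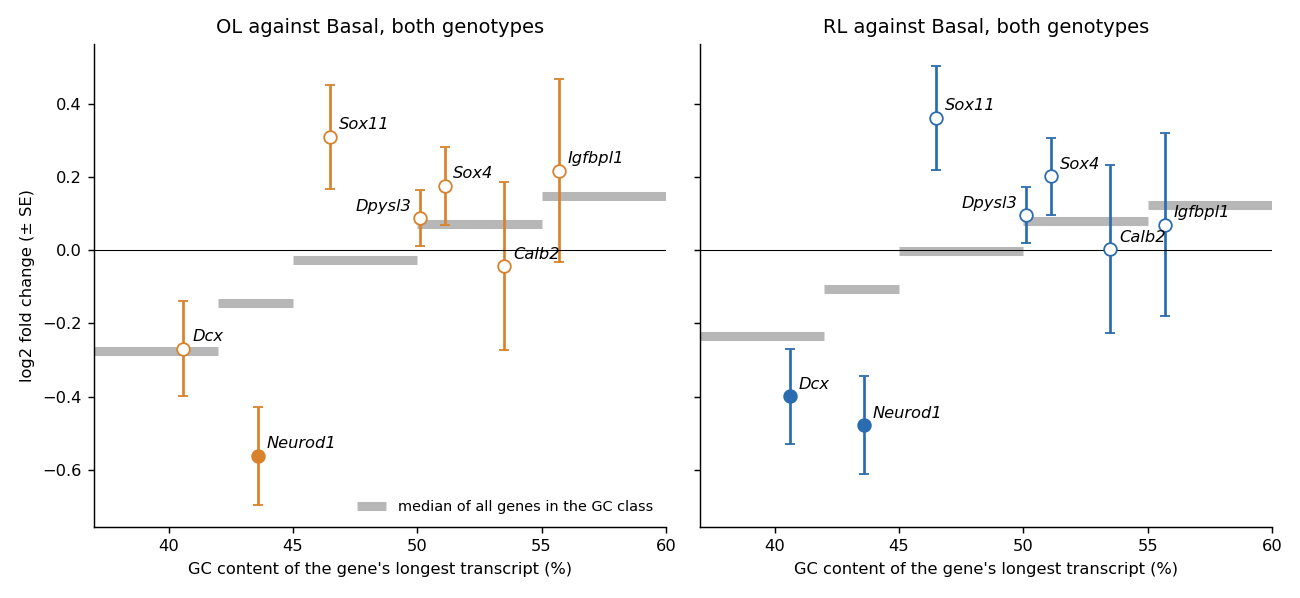
Log2 fold change against Basal over both genotypes (± SE, 12 mice in each comparison) of the 7 genes, by GC content of the longest transcript in percent, for OL (left) and RL (right). Filled points passed an adjusted p of 0.05, and grey bars are the medians of all genes in 5 GC classes, the end classes drawn to the edge of the axis. Neurod1 lies below the median of its class in both panels, Dcx lies on that of its class for OL, and Sox11 lies above that of its class in both.

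Dcx, the usual marker of neuroblasts and young neurons, was lowest in WT mice after reversal learning. WT Basal mice 1, 2 and 3 had 29.1, 21.7 and 25.8 CPM and KO Basal mice 28.7, 23.0 and 30.3 CPM. After original learning the WT mice had 18.9, 18.4 and 31.0 CPM and the KO mice 18.4, 20.8 and 24.7 CPM. After reversal learning the WT mice had 17.9, 15.0 and 16.6 CPM and the KO mice 19.4, 23.1 and 28.8 CPM. The 3 WT RL mice lay below every other mouse of the study. The order of the group means was KO Basal (27.4 CPM), WT Basal (25.6), KO RL (23.8), WT OL (22.8), KO OL (21.3) and WT RL (16.5), and neighbours in this order overlapped except KO OL and WT RL.

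In WT, Dcx fell by 0.59 from Basal to RL (SE 0.184, adjusted p = 0.0374). It was 1 of the 7 genes called there, where 15.7% of all genes were called, and 3 of the 7 did not overlap (Dcx, Sox11 and Neurod1), where 34.3% of all genes did not. The other changes of Dcx within WT were -0.19 from Basal to OL (SE 0.184, adjusted p = 0.552) and -0.40 from OL to RL (SE 0.184, adjusted p = 0.293). The OL and RL mice of WT did not overlap in Dcx, as held for 11.1% of all genes. In KO the changes were -0.35 from Basal to OL (adjusted p = 0.182), -0.20 from Basal to RL (adjusted p = 0.446) and 0.14 from OL to RL (adjusted p = 1.0), all with overlap. Over both genotypes Dcx fell by 0.40 from Basal to RL (SE 0.130, adjusted p = 0.0248, exact permutation p = 0.03), and its change from Basal to OL was -0.27 (SE 0.130, adjusted p = 0.134, exact permutation p = 0.105). From OL to RL over both genotypes it was -0.13 (SE 0.130, adjusted p = 0.708).

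These changes of Dcx moved with base composition. With 40.6% GC in its longest transcript, Dcx belongs to the class of 1656 genes under 42% GC, of which 58.2% were called lower in OL and 53.9% in RL, with median changes of -0.275 and -0.235. After the GC correction the change from Basal to RL was -0.37 in WT (adjusted p = 0.202) and -0.18 over both genotypes (adjusted p = 0.297), and that from Basal to OL over both genotypes was -0.02 (adjusted p = 0.935). In WT from Basal to OL, and in KO from Basal to RL, the sign turned, to 0.05 and 0.02. The WT call was also lost without WT Basal mouse 1 or 3, or without any of the 3 WT RL mice (adjusted p 0.0527 to 0.151), and the call over both genotypes without WT Basal mouse 1, KO Basal mouse 1 or 3, WT RL mouse 2 or KO RL mouse 1 (adjusted p 0.0534 to 0.0676). Without WT OL mouse 3, Dcx was called lower from Basal to OL over both genotypes (-0.39, adjusted p = 0.015). With the GC correction the 3 WT RL mice still lay lowest, at 16.7 to 18.5 CPM against 19.2 CPM or more in the other mice.

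Sox11 stood higher on average in trained than in untrained mice, while Dcx stood lower. It stood at 15.2, 12.5 and 14.9 CPM in WT Basal mice and at 16.1, 12.4 and 17.0 CPM in KO Basal mice. After original learning it stood at 14.2, 13.1 and 25.3 CPM in WT and at 17.2, 20.1 and 22.9 CPM in KO, and after reversal learning at 15.7, 17.0 and 17.2 CPM in WT and at 18.4, 19.9 and 27.9 CPM in KO. Each RL group lay above the Basal group of its own genotype, and so did the KO OL group, while WT OL mice 1 and 2 lay within the Basal range. Of all genes, 34.3% did not overlap between Basal and RL in WT, 45.3% in KO, and 48.8% between Basal and OL in KO.

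Sox11 did not pass the threshold in any comparison of the fit reported, and its call changed under others. With the replicate block it passed in KO from Basal to RL (adjusted p = 0.0269) and over both genotypes for OL (0.0420) and RL (0.0168), and with only the groups compared in KO for OL (0.0488) and RL (0.0496) and over both genotypes for RL (0.0171). The replicate numbers used in the block did not pair the mice, with a median correlation of -0.0227 between same-numbered mice against 0.0246 between others. It also passed over both genotypes without WT OL mouse 2 for OL (adjusted p = 0.0411) and without KO RL mouse 1 for RL (0.0421). Its change from Basal to RL over both genotypes was 0.36 (SE 0.142, adjusted p = 0.0568, exact permutation p = 0.005), and after the GC correction 0.39 (adjusted p = 0.0395), which passed. In KO its change was 0.39 from Basal to OL (SE 0.200, adjusted p = 0.174) and 0.50 from Basal to RL (SE 0.200, adjusted p = 0.0777). In WT its change from Basal to RL was 0.22 (SE 0.200, adjusted p = 0.504). With 46.5% GC in its longest transcript, it belongs to the class of 45 to 50% GC, whose median change was -0.027 from Basal to OL and -0.00128 from Basal to RL.

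Dcx and Sox11 deviated together from mouse to mouse, and the ratio between them differed between the training states. Over the 18 libraries their correlation was 0.344 (Spearman rho 0.212), and with the 6 group means removed it was 0.939. Without the mice farthest from the median, WT OL mouse 3 and KO RL mouse 3, it was 0.887 over 16 libraries. Libraries share tissue cut, depth and base composition, and the part of these was not tested. The ratio of Dcx to Sox11 in CPM was 1.92, 1.74 and 1.73 in WT Basal and 1.78, 1.86 and 1.79 in KO Basal mice. It was 1.33, 1.40 and 1.22 in WT OL, 1.07, 1.04 and 1.08 in KO OL, 1.14, 0.885 and 0.967 in WT RL and 1.05, 1.16 and 1.03 in KO RL mice.

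All 12 trained mice thus lay below all 6 Basal mice in this ratio, WT OL mouse 3 included. The ratio averaged 1.80 ± 0.0729 in Basal, 1.19 ± 0.153 in OL and 1.04 ± 0.103 in RL mice (SD, n = 6). It was looked at after the values were known, so no test is given. Set against Sox11 in the same way, 605 genes (4.33%) lay lower in all trained mice and 1 gene lay higher. These were among 13978 genes of a mean of 1 CPM or more. After the GC correction the ratio ran from 1.57 to 1.74 in Basal, from 1.08 to 1.5 in OL and from 0.973 to 1.18 in RL mice, still without overlap of Basal with the others, and 2.5% of genes did likewise. The log2 difference from Basal shrank with the correction from -0.61 to -0.40 for OL and from -0.80 to -0.60 for RL.

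**Figure D3:**
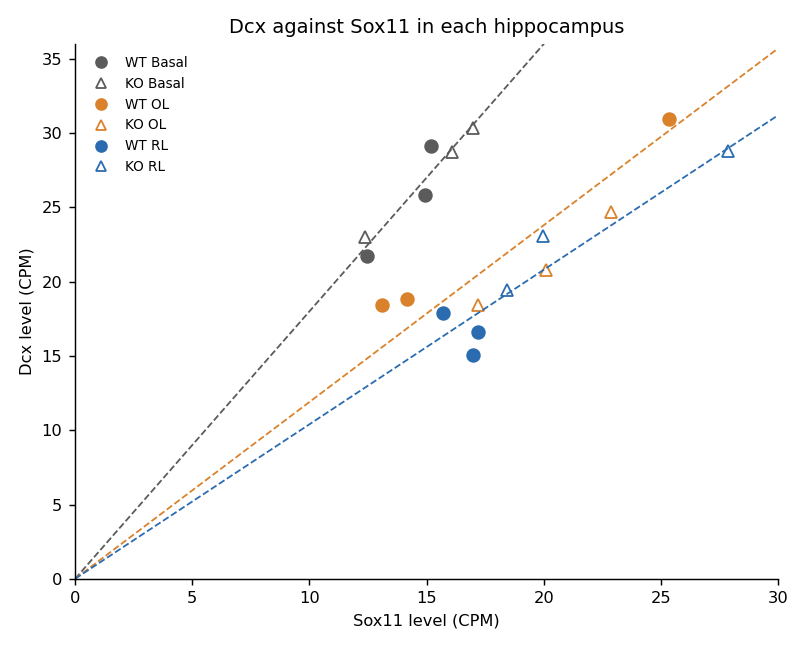
Dcx against Sox11, both in CPM, in each of the 18 hippocampi (circles WT, open triangles KO, colour by training state). Dashed lines have the mean ratio of Dcx to Sox11 in Basal (1.80), OL (1.19) and RL mice (1.04). Points lie along their own line, and no trained mouse reaches the Basal line.

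Neurod1 followed the mature granule neuron markers from mouse to mouse. With group means removed its correlation with the summed level of the 10 markers (among them Prox1, C1ql2, Dsp and Calb1) was 0.95 over 18 libraries, against 0.712 for Dcx, 0.792 for Sox11 and 0.204 for Sox4. The gene most like Neurod1 over the 18 libraries, among 13978 genes, was C1ql3, a secreted synaptic protein (Pearson r 0.959, and 0.921 with group means removed), followed by Dync1i2 (0.942) and Ccdc85a (0.930). In WT OL mice the markers and Neurod1 were both highest in mouse 3. Per 100 CPM of the granule markers Neurod1 stood at 4.01 to 4.76 in the 6 Basal mice, 3.08 to 3.5 in the 6 OL mice and 2.37 to 3.22 in the 6 RL mice.

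WT OL mouse 3, at 3.41 on this scale, no longer stood apart from WT OL mice 1 and 2, at 3.5 and 3.15. Basal did not overlap with OL or RL, while OL and RL overlapped, and after the GC correction the ranges were 3.94 to 4.72, 3.10 to 3.53 and 2.33 to 3.22. On this scale 0.229% of 13978 genes lay lower in all trained than in all Basal mice, and 0.129% after the correction. The scale was chosen after the values were seen and carries no test. The marker list itself changed in part: from Basal to RL, Dsp, Lct and Pdzd2 were called higher and Calb1 and Tdo2 lower.

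**Figure D4:**
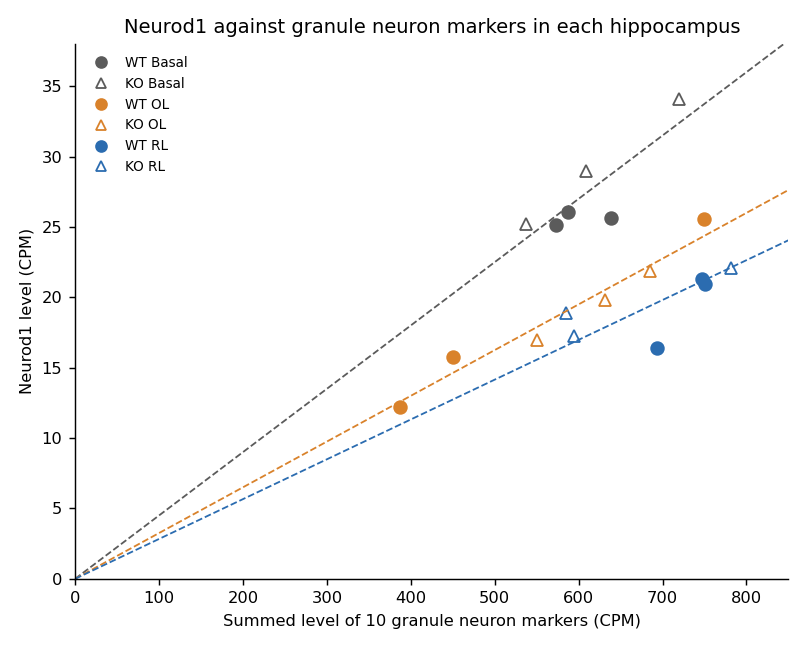
Neurod1 level against the summed level of 10 granule neuron markers, both in CPM, in each hippocampus (circles WT, open triangles KO, colour by training state). Dashed lines have the mean Neurod1 level per 100 CPM of markers in Basal (4.50), OL (3.25) and RL mice (2.83). The low Neurod1 of WT OL mice 1 and 2 goes with low granule markers, and the Basal mice lie above all trained mice at a given marker level.

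Sox4 was not called in any comparison of the fit reported and varied with genes of dividing cells, and with those of some other lists too. It stood at 12.7, 9.59 and 13.4 CPM in WT Basal, 11.5, 10.8 and 12.4 CPM in KO Basal, 13.1, 14.4 and 14.8 CPM in WT OL and 10.8, 11.8 and 15.6 CPM in KO OL mice. It stood at 10.8, 13.2 and 12.1 CPM in WT RL and 16.6, 12.2 and 17.9 CPM in KO RL mice. Its change over both genotypes was 0.18 from Basal to OL (adjusted p = 0.232) and 0.20 from Basal to RL (adjusted p = 0.152). From Basal to RL the change was 0.38 in KO (SE 0.150, adjusted p = 0.0758) and 0.02 in WT (adjusted p = 0.94). The difference of these changes was 0.36 (SE 0.212, adjusted p = 0.91). KO RL mice 1 and 3 were the highest of the study. All neighbours in the order of its group means, from KO RL (15.5 CPM) to KO Basal (11.6 CPM), overlapped.

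The genes most like Sox4 were Top2a, the topoisomerase of dividing cells (r 0.926, and 0.927 with group means removed), Shb (0.806) and Mki67, the marker of cells in cycle (0.805). Without KO RL mice 1 and 3, the farthest from the median, r was 0.891 for Top2a and 0.619 for Mki67. Top2a stood at 7.04, 2.78 and 9.24 CPM in KO RL mice 1, 2 and 3, against 2.03 to 5.22 CPM in the other 15 mice. Igfbpl1 was highest in KO OL mouse 3 and then in KO RL mouse 3. Its most alike genes were Rrm2 (0.830), the ribonucleotide reductase subunit of cells in S phase, Draxin (0.828), an axon guidance protein, and Sncaip (0.808). Sox4 and Igfbpl1 correlated with each other at 0.764, and at 0.864 with group means removed. Their correlations with the summed cell division list, with group means removed, were 0.89 and 0.817, against 0.228 for Dcx and 0.023 for Neurod1. The likeness was not particular to that list. With the mossy cell markers, Calb2 among them, Sox4 and Igfbpl1 correlated at 0.81 and 0.716, and with the radial glia-like stem cell genes at 0.656 and 0.662.

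**Figure D5:**
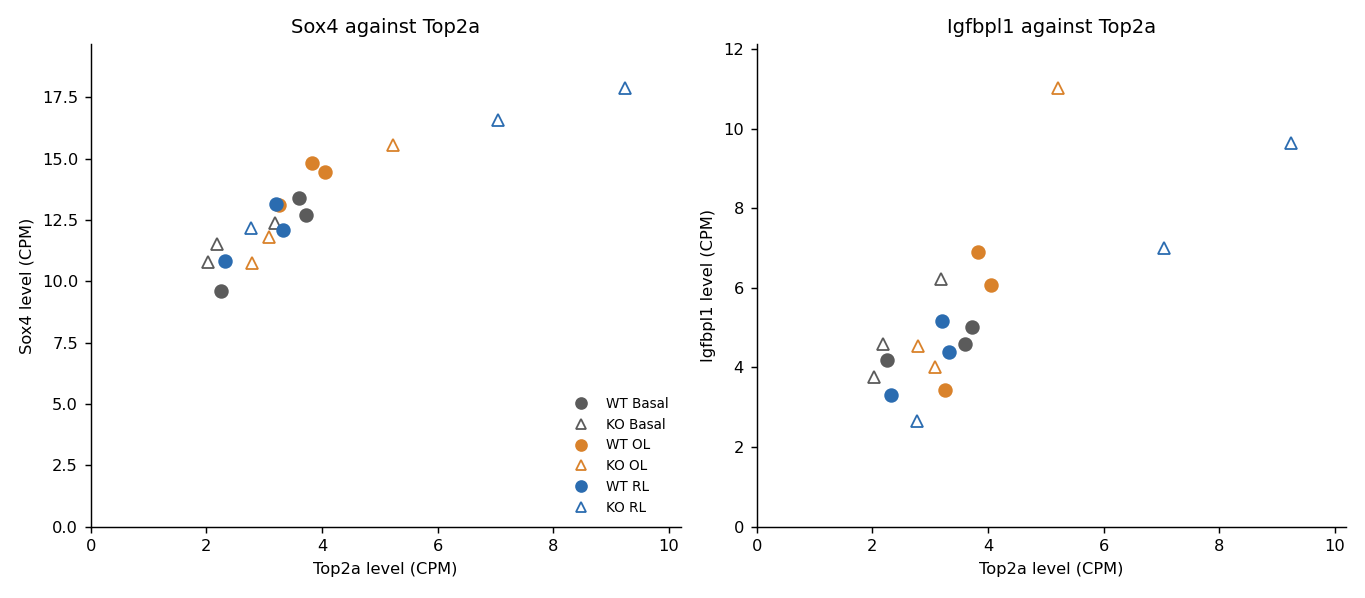
Sox4 (left) and Igfbpl1 (right) against Top2a, all in CPM, in each of the 18 hippocampi (circles WT, open triangles KO, colour by training state). Both rise with Top2a across the mice, and KO RL mice 1 and 3 lie farthest to the right, at 7.04 and 9.24 CPM of Top2a.

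Igfbpl1 was the least abundant and most variable of the 7. It stood at 5.03, 4.20 and 4.58 CPM in WT Basal, 4.58, 3.77 and 6.21 CPM in KO Basal, 3.44, 6.08 and 6.90 CPM in WT OL and 4.54, 4.01 and 11.0 CPM in KO OL mice. In WT RL it stood at 3.32, 5.17 and 4.39 CPM and in KO RL at 7.01, 2.66 and 9.63 CPM. The KO RL mice spanned both the lowest level of the study and the second highest, so the groups overlapped throughout. No comparison called it, with changes over both genotypes of 0.22 from Basal to OL and 0.07 from Basal to RL (SE 0.251 for each).

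Dpysl3, at 18:43320984 to 43438286, was the steadiest. It stood at 73.8, 71.2 and 70.3 CPM in WT Basal, 73.3, 69.7 and 78.5 CPM in KO Basal, 74.3, 59.5 and 88.1 CPM in WT OL and 82.8, 80.0 and 83.3 CPM in KO OL mice. In WT RL it stood at 80.6, 71.5 and 71.7 CPM and in KO RL at 74.3, 90.9 and 79.8 CPM. The KO OL mice lay above the KO Basal mice in Dpysl3, where 48.8% of all genes did not overlap. The change of Dpysl3 was 0.15 (SE 0.109, adjusted p = 0.331) and did not pass. Its most alike genes were Tnik (0.935), Dcaf7 (0.924) and Brd3 (0.916). Its deviations went with those of Neurod1 (0.806 with group means removed), but at 0.505 without the WT OL mice.

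Calb2 had the widest spread between mice beside Igfbpl1 and stood higher in untrained KO than in untrained WT mice on average. WT Basal mice had 34.3, 27.6 and 51.0 CPM and KO Basal mice 73.8, 46.4 and 69.8 CPM, so that KO Basal mouse 2 lay below WT Basal mouse 3. The change was 0.75 (SE 0.326, unadjusted p = 0.0341, adjusted p = 0.994). In OL it stood at 38.4, 27.7 and 48.2 CPM in WT and 52.4, 39.1 and 91.3 CPM in KO mice, and in RL at 32.7, 66.6 and 56.8 CPM in WT and 56.0, 33.6 and 50.4 CPM in KO mice, with overlap in both. Its most alike genes were Slc12a8 (0.756), Pinx1 (0.755) and Slc29a1 (0.752).

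Calb2 is also a marker of mossy cells, interneurons and the thalamus. With group means removed its correlation was 0.538 with the other 5 mossy cell markers, 0.728 with the other 9 thalamus and habenula markers and -0.052 with the 10 interneuron markers. The part of tissue outside the dentate gyrus in the level of Calb2 was not tested.

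In the comparisons of OL and RL with Basal 0 to 2 of the 7 genes passed. None of these counts exceeded the share of all genes that passed. In WT from Basal to OL 1 of 7 had an unadjusted p under 0.05, against 25.9% of all genes. There 0 of 7 passed limma, where 9.5% of all genes passed. Those genes were 595 higher and 862 lower, and with the GC correction 201 higher and 171 lower. In KO from Basal to OL 1 of 7 passed (Neurod1), where 23.5% of all genes passed, and 3 of 7 did not overlap (Sox11, Neurod1 and Dpysl3), where 48.8% of all genes did not. In KO from Basal to RL 1 of 7 passed (Neurod1) against 23.6% of all genes, and 2 of 7 did not overlap (Sox11 and Neurod1) against 45.3%. Over both genotypes 1 of 7 passed from Basal to OL (Neurod1) against 28.6% of all genes, and 2 of 7 from Basal to RL (Dcx and Neurod1) against 35.4%.

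Voom on the recovered reads also gave 0 of 7 in each comparison where limma gave 0. Between reversal and original learning no change in the 7 genes passed. In WT 0 of 7 passed limma against 0.261% of all genes, and in KO 0 of 7 against 0.0196%. Over both genotypes 0 of 7 passed against 0.352%. At an unadjusted p under 0.05 there were 1, 0 and 0 of 7, against 16.35%, 4.81% and 11.07% of all genes. Without WT OL mouse 3, 2042 genes (13.3%) passed in WT in place of 40, and 506 (3.3%) over both genotypes in place of 54. Without WT RL mouse 1 the numbers were 90 and 91. The changes over both genotypes ran from -0.15 for Igfbpl1 to 0.08 for Neurod1, and Sox11 was at 0.05 (SE 0.142).

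Whether the loss of Ccny went with other levels of the 7 genes was compared in each training state, and no difference was called. In untrained mice 0 of 7 passed limma against 0.0196% of all genes, and Dcx differed by 0.10 (SE 0.184, adjusted p = 0.994). Only 1 of 7 (Calb2) had an unadjusted p under 0.05, against 3.999% of all genes. After original learning 0 of 7 had an unadjusted p under 0.05, against 18.03% of all genes. There 0 of 7 passed against 0.0652%, with Dcx at -0.06 (SE 0.184, adjusted p = 0.873). This comparison depended on WT OL mouse 3: without it 3 of 7 were called higher in KO, Sox11 by 0.52 (adjusted p = 0.0434), Neurod1 by 0.46 (adjusted p = 0.0475) and Dpysl3 by 0.30 (adjusted p = 0.0464), and 16.5% of all genes were then called. WT OL mice 1 and 2, left in that fit, had the lowest granule marker sums of the study (450 and 388 CPM, against 551 to 685 CPM in KO OL). With group means removed these 3 genes correlated with the markers at 0.792, 0.95 and 0.689. The part of granule neuron content in these calls was not tested.

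After reversal learning 0 of 7 passed limma, 0 passed with voom, and 0% of all genes passed. Dcx and Sox4, 2 of 7, had an unadjusted p under 0.05, against 4.93% of all genes. Without WT RL mouse 1, 59 genes passed. All KO RL mice lay above all WT RL mice in Dcx (19.4 to 28.8 against 15.0 to 17.9 CPM) and in Sox11 (18.4 to 27.9 against 15.7 to 17.2 CPM), where 8.18% of all genes did not overlap. The differences were 0.49 for Dcx (SE 0.184, unadjusted p = 0.0176, adjusted p = 0.879) and 0.37 for Sox11 (SE 0.200, adjusted p = 0.986). For Dcx the interval of 2 SE ran from 0.12 to 0.85, and the difference was 0.34 to 0.62 under the alternatives tried. Over the 3 training states all 7 genes were higher in KO on average, by 0.05 for Sox4 to 0.41 for Calb2, with a median of 0.17 against 0.00303 for all genes. The 7 genes deviate together between mice, so this is not 7 separate observations. Of the 7, 0 passed against 0.0326% of all genes, and Dcx differed by 0.17 (SE 0.106, adjusted p = 0.678). Calb2 alone, 1 of 7, had an unadjusted p under 0.05, against 8.36% of all genes.

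Whether training changed the genes differently in KO and WT was tested as the difference of their changes, and 0 of 7 and 0% of all genes passed in each case. Single mice decided this over all genes: without WT OL mouse 3, 907 genes (5.92%) passed in the change from Basal to OL, without WT RL mouse 1 or 3, 32 or 43 genes in that from Basal to RL, and without WT RL mouse 1, 21 genes in that from OL to RL. For Dcx the difference was -0.16 in the change from Basal to OL (SE 0.260, adjusted p = 0.777), 0.39 from Basal to RL (SE 0.260, adjusted p = 0.908) and 0.55 from OL to RL (SE 0.260, unadjusted p = 0.0514, adjusted p = 0.628). At an unadjusted p under 0.05 there were 0, 0 and 1 of 7, against 12.45%, 4.991% and 7.985% of all genes. The last was Sox4 from OL to RL (0.49, SE 0.212, unadjusted p = 0.0351, adjusted p = 0.60). With 3 mice a group the interval of 2 SE for Dcx from OL to RL, 0.03 to 1.07, is wide.

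Other genes of the neurogenic lineage were counted from lists, beside 28.6% of all genes called from Basal to OL and 35.4% from Basal to RL, over both genotypes and without the GC correction. Of 10 radial glia-like stem cell genes 1 rose (Nes, 0.28, adjusted p = 0.0204) and 3 fell from Basal to OL, and 3 rose and 4 fell from Basal to RL. Sox2, the stem cell transcription factor, fell by 0.51 in OL (adjusted p = 0.000234) and 0.50 in RL (adjusted p = 0.000191), and Id4, which holds stem cells in quiescence, by 0.55 and 0.52 (adjusted p = 0.000174 and 0.000202). Fabp7, a lipid-binding protein of radial glia, fell by 0.40 and 0.79 (adjusted p = 0.0219 and 0.000132). In RL Hopx also fell (by 0.50), and Notch1, Vim and Sox9 rose by 0.34, 0.32 and 0.23. Hes5 was at -0.23 in both (adjusted p = 0.161 and 0.149). Many of these genes are also used by astrocytes.

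Of 10 cell division genes none was called from Basal to OL and 1 from Basal to RL (Pcna, fell by 0.15), with Mki67 at 0.06 and 0.27 and Top2a at 0.30 and 0.45. Of 10 intermediate progenitor and neuroblast genes 1 fell in both (Elavl2, an RNA-binding protein, by 0.45 and 0.41), while the defining genes were near the lower end of the data, Eomes at 0.467 to 6.59 CPM and Neurog2 at 0.731 to 1.75 CPM, and neither passed. Of 14 genes of growing neurites 1 rose and 2 fell from Basal to OL, and 2 rose and 2 fell from Basal to RL. Tubb3, the neuronal tubulin, rose by 0.29 and 0.20 (adjusted p = 0.000831 and 0.00755), and Ncam1, a cell adhesion molecule, rose by 0.44 in RL. Basp1 fell by 0.21 and 0.23, Bhlhe22 by 0.31 in OL and Gap43 by 0.27 in RL, while Stmn1 was at 0.00265 and -0.21 and Prox1 at 0.01 and 0.39.

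Of 12 paralogs of the 7 genes 11 were listed, of which 3 rose and 2 fell from Basal to OL, and 5 rose and 1 fell from Basal to RL. Dpysl2 (CRMP2), the paralog of Dpysl3, rose by 0.81 and 0.87 (adjusted p = 5.92e-06 and 2.29e-06), against 0.09 and 0.10 for Dpysl3, which did not pass. Dclk2, the doublecortin-like kinase, rose by 0.20 and 0.25 (adjusted p = 0.0337 and 0.00863), and Crmp1 by 0.26 and 0.27. Neurod6 fell by 0.37 in OL (adjusted p = 0.0326), and in RL Dpysl5 rose by 0.39 and Neurod2 by 0.28 (adjusted p = 0.0151 and 0.0465). Calb1 fell by 0.43 and 0.29. The median changes of the lists from Basal to OL and RL were -0.218 and -0.190 for stem cells, 0.00769 and 0.0822 for division, 0.0123 and -0.0561 for progenitors, -0.0442 and -0.131 for neurites and 0.0661 and 0.152 for paralogs, against -0.00279 and 0.00121 for all genes.

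The lists for other cells and states, each of 10 genes but for 6 of mossy cells, were counted beside these. Of the mature granule markers 0 rose and 3 fell from Basal to OL (Calb1, Stxbp6 and Tdo2), and 3 rose and 2 fell from Basal to RL. None of the interneuron genes was called in either. Mossy cell markers gave 1 fall in OL (Calcrl) and 1 rise (Ajap1) and 2 falls (Calcrl and Csf2rb2) in RL, and thalamus and habenula markers 0 calls in OL and 1 rise in RL (Tcf7l2). Oligodendrocyte precursor genes gave 2 rises in OL (Gpr17 and Olig1) and 3 in RL (Gpr17, Tnr and Olig1) with 0 falls. Choroid plexus genes gave 3 rises in OL (Folr1, Aqp1 and Cldn2) and 0 calls in RL over both genotypes. Of the activity-induced genes 7 rose in OL and 5 in RL, among them Fosb, Egr1, Fos and Arc in both. Of the glucocorticoid-induced genes 7 rose in OL, and 7 rose and 1 fell (Ddit4) in RL, among the risen Sgk1, Per1 and Tsc22d3 in both and Fkbp5 in RL. Between KO and WT over the 3 training states no gene of the 13 lists was called.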

How the data were processed

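Total RNA of 18 hippocampi was sequenced after poly-A selection. Per the labels and the study's methods, the authors mapped reads to mm10 with STAR 2.5.1, counted them per gene, scaled the counts by TMM in edgeR 3.12.1 with R 3.3.0 and deposited 1 table of log2 CPM for 15329 genes. The methods describe a floor at 1 CPM, but the deposited log2 values fit log2(CPM + 1): with that offset 100% of values were whole multiples of 1 read (tolerance 0.1 read). Depth was 29248557 to 37915576 reads on listed genes. Intervals of 2 SE give the uncertainty of a difference between group means, with the variance between mice estimated over all groups together.

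The deposited log2 values were fitted with limma 3.58.1 (R 4.3.3, trended variance, 6 group means, 12 residual degrees of freedom, Benjamini-Hochberg over 15329 genes, threshold 0.05). Fold changes are on the log2(CPM + 1) scale. Exact permutation tests were two-sided and shuffled mice within genotype. Summaries used Python 3.11.15. Nothing says whether the 3 samples of a group came from separate litters or days. Transcript GC content came from the longest GENCODE M21 transcript (99.4% of genes matched). The fit was tested on simulated data.

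The 7 genes, the 13 gene lists and the tests were chosen with earlier results of these data known. All 7 genes are named with every value. Fold changes are given for Dcx throughout and for any member called or with groups that did not overlap, other values as ranges and where they bear on these. Most alike genes are the 3 of highest Pearson r over 18 libraries at a mean of 1 CPM or more. In lists, called genes (up to 4 by size of change) and defining genes were to be named. In the lists for other cells and states only called genes are named, and some names beyond this rule were added after their values were seen. The ratios of Dcx to Sox11 and of Neurod1 to granule markers were also added after the values were seen. Alternatives were another offset, a floor at 1 CPM, a filter at a mean of 1 CPM, median-centred libraries, a replicate block, only the groups compared, a GC correction, voom on the recovered reads (added after seeing the data) and each mouse left out.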

Additional observations from a re-analysis of the deposited data

How the results depend on the processing

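Over the 16 comparisons, 240 of 271 counts of the 7 genes called stayed within 1.5 times the reported count. In most comparisons the reported count was 0, and a 0 that stayed 0 was taken as within 1.5 times. The WT call of Dcx from Basal to RL was lost in 7 of 14 alternatives. The KO calls of Neurod1 were lost in 7 of 14 for OL and 6 of 14 for RL. Of 423 fold changes of the 26 named, 417 kept their sign. With values under 1 CPM raised to 1 CPM the count went from 1 to 0 in WT from Basal to RL (Dcx, adjusted p = 0.0568), in KO from Basal to OL (Neurod1, 0.0669) and in KO from Basal to RL (Neurod1, 0.0623), and the cause was not tested. With the GC correction the same 3 counts also went to 0, and Dcx turned to 0.05 in WT from Basal to OL and to 0.02 in KO from Basal to RL. In a fit of only the groups compared the count was 2 in KO from Basal to OL and 2 in KO from Basal to RL, Sox11 joining Neurod1. Leaving out each mouse gave counts of 0 to 1 in WT from Basal to OL, 0 to 1 in WT from Basal to RL, 0 to 1 in KO from Basal to OL, 0 to 1 in KO from Basal to RL, 0 to 3 in KO against WT after OL, 1 to 2 over both genotypes from Basal to OL, 1 to 3 over both genotypes from Basal to RL, and 0 in the other 9 comparisons. With each mouse left out the difference of Dcx ran from -0.01 (without WT Basal mouse 2) to 0.21 in KO against WT in Basal mice, from -0.19 to 0.17 in KO against WT after OL, turning positive without WT OL mouse 3 (0.17) or KO OL mouse 1 (0.03), and from -0.28 to 0.08 (without WT OL mouse 3) in the difference of changes from Basal to OL. The replicate block gave 3 called in KO from Basal to RL (Neurod1, Sox11 and Sox4) and 2 over both genotypes from Basal to OL (Neurod1 and Sox11). The numbers 1 to 3 did not pair the mice: same-numbered mice correlated at -0.635 to 0.547 over 45 pairs, with 12 over 0.1, and a mouse correlated best with its own number in 24 of 90 cases. Over all genes the calls went from 1457 to 372 in WT and from 3600 to 2386 in KO from Basal to OL, from 2407 to 1191 in WT from Basal to RL and from 4388 to 2541 over both genotypes from Basal to OL with the GC correction. In a fit of only the groups compared they went from 1457 to 74 in WT from Basal to OL, from 2407 to 1523 in WT from Basal to RL, from 40 to 0 in WT and from 54 to 15 over both genotypes from OL to RL, and from 10 to 2 in KO against WT after OL, which became 2536 without WT OL mouse 3. With a mouse left out the calls in WT from Basal to OL ran from 629 (without WT Basal mouse 3) to 2496 (without WT OL mouse 3), fell to 1137 in WT from Basal to RL (without WT Basal mouse 3), and to 2228 for OL and 2091 for RL in KO (without KO Basal mouse 1), and KO against WT over all states went from 5 to 66 without WT RL mouse 1. Without a filter all 15329 genes remain, as in the fit reported, so no separate value exists, the comparison of KO with WT over all states already uses every library, and edgeR on recovered reads was not run because the deposited values are log2 values, with voom used in its place. Igfbpl1 rested on 87 to 393 reads a library, which with 3 mice a group limits what its comparisons can show.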
